A study of Mus musculus with 4 samples.

Results

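Quaking, the tRNA methyltransferase pair Mettl1 and Wdr4, the dynein heavy chain gene Dync1h1 and the mannose 6-phosphate receptor gene Igf2r were followed across the immune cells of the mouse nasal mucosa. The 5 genes were taken by their symbols from the 27998 genes listed in the data, where the mouse symbol of QKI is Qk, and each was found once. Single-cell transcriptomes came from 4 libraries of CD45+ nasal mucosa cells of C57BL/6 mice aged 8 weeks. Vehicle and Ribavirin are the libraries without allergen, and Vehicle-OVA and Ribavirin-OVA those of mice with allergic rhinitis raised by ovalbumin (OVA), an egg white protein used as a model allergen. Ribavirin, a guanosine analogue with antiviral activity, is named as a spray in the title of the series, and its dose is not given in the sources used here. OVA mice were sensitised by injection of OVA with alum and then challenged through the nose. Each group was 1 library, and the number of mice behind a library is not given in the sources used here, so no comparison below has a replicate check and none was tested.

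Quaking is a KH-domain RNA-binding protein of the STAR family that controls splicing, stability and transport of RNA, is best known from myelin-forming glia and the monocyte to macrophage transition, and can bind N7-methylguanosine (m7G) inside mRNA. METTL1 is the enzyme that places m7G on tRNA, and to a lesser extent on other RNA, and WDR4 is the partner that holds the tRNA on it. DYNC1H1 is the motor subunit of cytoplasmic dynein, which carries vesicles and RNA granules towards the minus ends of microtubules. IGF2R, the cation-independent mannose 6-phosphate receptor, brings newly made lysosomal enzymes from the trans-Golgi network to endosomes and clears IGF2 at the cell surface. The study asked how stress granules, which are condensates of untranslated mRNA and RNA-binding proteins, act in nasal macrophages, and these genes belong to its account of m7G-marked mRNA and granule transcripts.

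In the mm10 build, Qk (ENSMUSG00000062078) lies at chr17:10202601-10319854 on the minus strand, and its longest annotated transcript has 8547 bases in 8 exons. Its isoforms differ mainly at the 3′ end of the coding sequence, and gene-level counts cannot separate them. Mettl1 (ENSMUSG00000006732) lies at chr10:127041414-127046365 on the plus strand, with 1791 bases in 6 exons. Wdr4 (ENSMUSG00000024037) lies at chr17:31494322-31519980 on the minus strand, with 4154 bases in 11 exons. Dync1h1 (ENSMUSG00000018707) lies at chr12:110601452-110666945 on the plus strand, with 14342 bases in 77 exons. Igf2r (ENSMUSG00000023830) lies at chr17:12682406-12769664 on the minus strand, with 8887 bases in 48 exons. The antisense gene Airn, which runs across the start of Igf2r and silences it on the paternal copy in many tissues, lies at chr17:12741311-12860136 on the plus strand.

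The promoter letters were read for the E-box CACGTG, and for the longer form with GT before it and AC after it that TFEB and related factors bind in lysosomal genes, because Igf2r serves lysosomal sorting. Both forms read the same on both strands, and the longer one holds the shorter. RefSeq windows of 300 bases around gene starts (GRCm38.p6) held CACGTG in 7.15% of 32851 cases and the longer form in 0.3257%. Igf2r held CACGTG at 2 places, the downstream one in its longer form, and Mettl1 held it at 1 place, while the windows of Qk, Wdr4 and Dync1h1 held neither. The sequences follow 5′ to 3′ with CACGTG in capitals, at chr10:127041952-127041977 on the plus strand for Mettl1, at chr17:12769739-12769764 on the minus strand for the upstream Igf2r site, and at chr17:12769698-12769723 on the minus strand for the downstream Igf2r site.
Mettl1: ctcggctctcCACGTGgactgcgtgg
Igf2r, upstream: acgaggacgtCACGTGagcaggaggc
Igf2r, downstream: cgactcaggtCACGTGacgctccggg
These are matches of letters and no factor was measured on them.

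The libraries held between 10311 and 28277 barcodes and between 91742940 and 171873110 unique molecular identifiers (UMIs, counted molecules), with medians of 3389 to 4952 UMIs per barcode. After filters on genes, UMIs and mitochondrial content and removal of marked doublets, 8746 to 24231 cells per library were sorted into 40 clusters, and the 5 genes were kept out of the genes used for clustering. Clusters were given class names from markers, written as "-like", and 7 clusters stayed without a name. Any 2 libraries shared 57 to 174 barcode sequences. The least UMIs of any barcode were 1782 in the Ribavirin library and 500 or 501 in the others, and 14.3% of Ribavirin-OVA barcodes had 10% or more mitochondrial UMIs against 5.18% to 8.99% elsewhere. Ptprc, the gene of CD45, stood at 43.3 CPM (UMIs of a gene scaled to the summed UMIs of the class) in epithelial-like and 97.5 CPM in olfactory neuron-like cells, against 189.9 CPM in plasma-like cells, so cells outside the CD45+ gate were present. Levels below are CPM of UMIs summed over the cells of a class in a library, and intervals are 95% exact intervals that cover counting error only (Poisson for a level, conditional binomial for a ratio). Levels are compared within a gene across cells, not between genes.

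Qk was present in every class and was highest in macrophage-like cells among the 13 classes and clusters with 50 cells or more in each library. In macrophage-like cells it stood at 211 CPM in Vehicle, 452 in Vehicle-OVA, 217 in Ribavirin and 437 in Ribavirin-OVA. Both OVA libraries were thus about level with each other and above both libraries without OVA. Monocyte-like cells followed with a mean over the libraries of 239 CPM, then the unnamed cluster 1 (led by Siglecf, which tissue neutrophils and eosinophils carry) with 221.5, the unnamed cluster 19 of shallow cells with 204, and plasmacytoid dendritic cells (pDC-like) with 201. Library ranges, which span libraries with and without OVA, overlapped between neighbours in this order. Over these whole ranges only distant classes were apart: the lowest macrophage-like library was above the highest epithelial-like one, at 78.8 CPM. The highest monocyte-like library, at 294 CPM, was nevertheless under both OVA libraries of macrophage-like cells. Epithelial-like cells were lowest, with 38.6 CPM in Vehicle, 78.8 in Vehicle-OVA, 28.9 in Ribavirin and 53.3 in Ribavirin-OVA.

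Depth differs between classes, so each cell was also thinned to 1000 UMIs. On that scale a Qk UMI was seen in 18.1% of macrophage-like cells in Vehicle, 28.1% in Vehicle-OVA, 18.4% in Ribavirin and 35.6% in Ribavirin-OVA. In epithelial-like cells, the lowest class, the thinned share was 6.83%, 10.2%, 4.88% and 7.75% in the same order. Without thinning the macrophage-like shares were 77.2%, 87.5%, 78.8% and 88.5% at medians of 9416, 11334, 9827 and 12297 UMIs per cell, and the epithelial-like shares 42.8%, 73.0%, 51.4% and 71.8%. The class difference and the OVA difference in Qk were therefore both present at matched depth.

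Mettl1 was highest in plasma-like cells, the antibody-secreting cells, with 65.2 CPM in Vehicle, 98.5 in Vehicle-OVA, 58.7 in Ribavirin and 100.4 in Ribavirin-OVA. No library of another of the 13 classes and clusters reached the lowest of these. pDC-like cells came next, and there the 4 libraries lay between 38.3 and 41.9 CPM. Epithelial-like, B-like and conventional dendritic (cDC-like) cells followed at means of 27.5, 27.4 and 24.4 CPM, with the B-like libraries spread from 13.3 to 38.1 CPM over the whole of that range. Macrophage-like and T-like cells were close to each other at means of 12.4 and 12.2 CPM. Neutrophil-like cells were lowest, at 2.10 CPM in Vehicle, 0.52 in Vehicle-OVA, 1.40 in Ribavirin and 1.72 in Ribavirin-OVA. The unnamed cluster 25, which held plasma cell markers and was mostly of the OVA libraries, stood at a mean of 63.9 CPM. That mean includes 17 cells of Vehicle and 9 of Ribavirin. With the libraries pooled, cluster 25 had 79.8 CPM on 691 UMIs and plasma-like cells 72.0 CPM.

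Wdr4 was the sparsest of the 5 genes and its class order was not firm. Plasma-like cells had the highest mean, 11.04 CPM, but their libraries ran from 3.47 to 19.5 CPM. Means from 9.20 CPM in B-like cells down to 4.81 in pDC-like cells lay within that range. Neutrophil-like cells were again lowest, with 0.91 CPM in Vehicle, 0.91 in Vehicle-OVA, 1.08 in Ribavirin and 2.44 in Ribavirin-OVA. The enzyme gene and its partner gene shared the top and bottom class in this order.

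Dync1h1 was spread evenly over most classes. Means lay between 166 CPM in pDC-like and 108 CPM in epithelial-like cells for 11 of the 13 classes and clusters, and their library ranges overlapped. Plasma-like cells stood below them at a mean of 62.9 CPM and neutrophil-like cells lowest at 45.3 CPM. In neutrophil-like cells the libraries read 43.2 CPM in Vehicle, 32.3 in Vehicle-OVA, 38.3 in Ribavirin and 67.5 in Ribavirin-OVA. Olfactory neuron-like cells, long-axon cells outside the gate, held the most, with 216 to 375 CPM over the libraries.

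Igf2r divided the leukocytes in another way than the other 4 genes. It was at similar means in neutrophil-like cells (69.3 CPM), cluster 1 (69.0), T-like cells (68.4) and natural killer cells (NK-like, 62.9), whose library ranges overlapped. In neutrophil-like cells it read 61.6 CPM in Vehicle, 84.5 in Vehicle-OVA, 42.7 in Ribavirin and 88.4 in Ribavirin-OVA. In T-like cells it read 47.4, 87.8, 53.4 and 85.0 CPM in the same order. The named classes of mononuclear phagocytes and dendritic cells were far below: macrophage-like cells had 5.94 CPM in Vehicle, 9.45 in Vehicle-OVA, 5.13 in Ribavirin and 14.9 in Ribavirin-OVA. The highest of these was under the lowest neutrophil-like library. Monocyte-like and cDC-like cells had means of 10.9 and 7.49 CPM. The unnamed cluster 7, which carried macrophage markers, had a higher mean of 36.4 CPM, and the shallow cluster 19 had 23.0 CPM. pDC-like cells were lowest with 0.97 CPM in Vehicle, 3.67 in Vehicle-OVA, 0.62 in Ribavirin and 4.07 in Ribavirin-OVA, which rest on 7, 8, 3 and 10 UMIs.

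The same order held for cells thinned to 1000 UMIs. An Igf2r UMI was seen in 6.07% of neutrophil-like cells in Vehicle, 8.86% in Vehicle-OVA, 4.08% in Ribavirin and 8.59% in Ribavirin-OVA. In macrophage-like cells it was seen in 0.470%, 0.781%, 0.530% and 1.03%. Unthinned shares were 12.98%, 19.6%, 11.3% and 21.3% against 4.53%, 8.20%, 4.08% and 12.2%, although neutrophil-like cells were the shallower class, with medians of 2080, 2804.5, 2674 and 2966.5 UMIs.

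**Figure D1:**
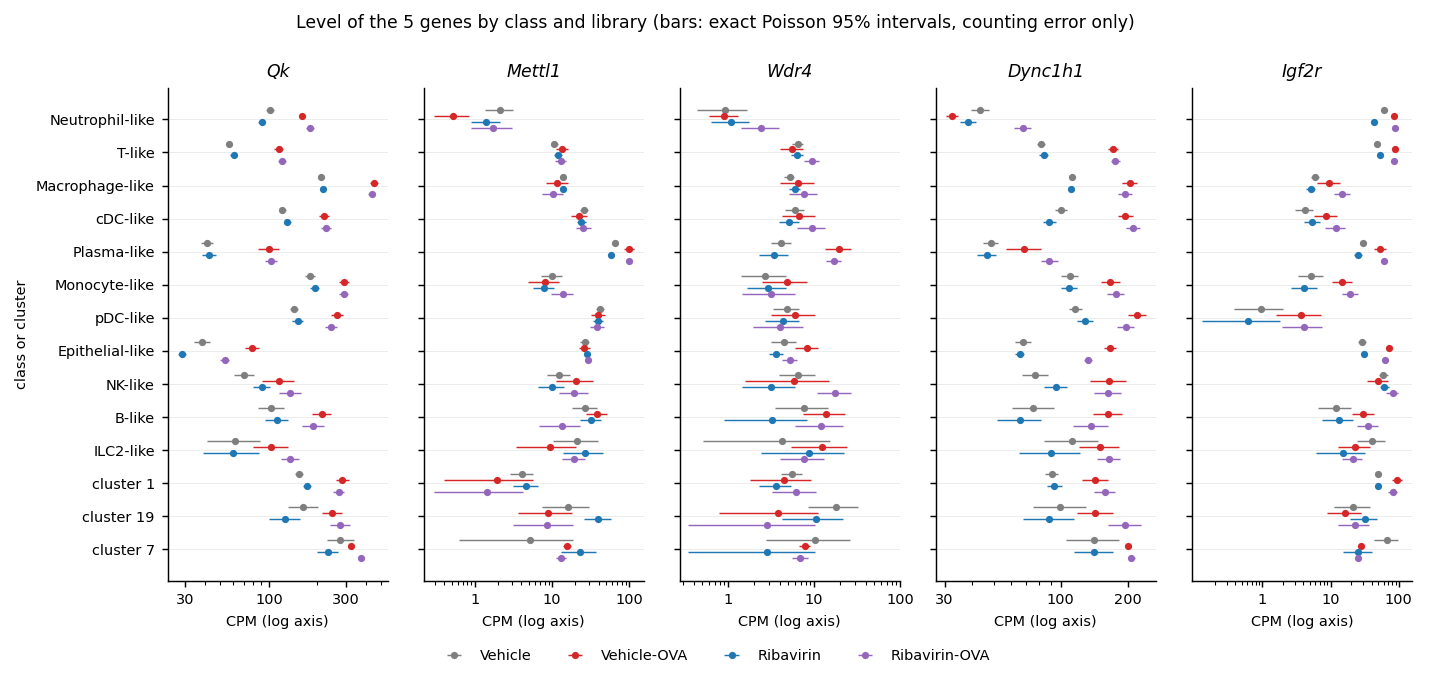
Level of each of the 5 genes (CPM of summed UMIs, log axis) by class or cluster and library, with 95% Poisson intervals. Qk peaked in macrophage-like cells, Mettl1 in plasma-like cells, and Igf2r was near 69 CPM in neutrophil-like and 8.85 CPM in macrophage-like cells on average.

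Airn was nearly absent where Igf2r was low among phagocytes, at 0.068 to 0.326 CPM in macrophage-like cells on 1 to 6 UMIs. It was also low in neutrophil-like cells, at 0.446 to 1.19 CPM, although Igf2r was high there. T-like cells held 5.68 to 9.66 CPM of Airn and NK-like cells 5.83 to 10.9 CPM. Whether counting used strand is not given in the sources used here, so reads of the overlap could fall to either gene.

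Macrophage-like cells, in which the study followed stress granules, had more Qk, Dync1h1 and Igf2r transcripts with OVA in both the vehicle and the ribavirin pair, while no difference in Mettl1 or Wdr4 went beyond counting error. Past 1.5-fold higher were 3 of the 5 genes in either pair and 0 were past it in the lower direction. The same fold in either direction was passed by 39.5% of 11804 genes in the vehicle pair and by 36.2% in the ribavirin pair, and 30.0% and 26.2% of genes were past it in the higher direction. The median of all genes was itself shifted by 0.30 and 0.24 on the log2 scale. These libraries hold 256 and 295 macrophage-like cells with OVA against 4481 and 3210 without. The unnamed cluster 7, which carried macrophage markers and is not in this class, held 1816 and 1171 cells with OVA.

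In macrophage-like cells Qk was 2.14-fold higher (2.02 to 2.26) in Vehicle-OVA than in Vehicle and 2.01-fold higher (1.91 to 2.12) in Ribavirin-OVA than in Ribavirin, from the levels given above. The size of this difference depended on the processing. Over both pairs, 18 alternative values of Qk fell below its counting interval and 4 stayed within it. With clusters weighted equally its ratios were 1.526 and 1.503. Mettl1 stood at 13.9 CPM in Vehicle, 11.7 in Vehicle-OVA, 13.8 in Ribavirin and 10.3 in Ribavirin-OVA, giving ratios of 0.844 (0.586 to 1.18) and 0.745 (0.525 to 1.03). Wdr4 stood at 5.19, 6.52, 5.98 and 7.69 CPM, giving ratios of 1.255 (0.752 to 1.99) and 1.285 (0.844 to 1.89). All 4 intervals of the methyltransferase pair held 1, so no difference of either gene was detectable at this depth. In the ribavirin pair the Mettl1 log2 ratio of -0.42 turned to 0.52 in cells with 3 or more C1q UMIs and to 0.054 with clusters weighted equally, and that of Wdr4 went from 0.36 to 1.03 at a 5% mitochondrial limit.

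Dync1h1 read 112 CPM in Vehicle, 205 in Vehicle-OVA, 111 in Ribavirin and 195 in Ribavirin-OVA in macrophage-like cells. Its ratios were 1.83 (1.68 to 1.99) and 1.75 (1.62 to 1.90), so both OVA libraries again lay above both others. The Igf2r ratios there were 1.59 (1.04 to 2.34) on 29 UMIs against 261, and 2.895 (2.11 to 3.92) on 58 UMIs against 169. The interval of the first comes close to 1 and the pairs overlap in their intervals. On the log2 scale the first, 0.67, became 1.27 at 2000 UMIs per cell and 1.67 in cells with 3 or more C1q UMIs, and the second, 1.53, became 0.61 at a 5% mitochondrial limit.

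The libraries with and without ribavirin were close in Qk and Dync1h1 of macrophage-like cells. Without OVA, where 1.53% of genes were past 1.5-fold, 0 of the 5 genes were, and Qk had a ratio of 1.03 (0.996 to 1.06) between Ribavirin and Vehicle. Dync1h1 had 0.994 and Igf2r 0.864 (0.707 to 1.05). With OVA, where 13.9% of genes were past the fold, 1 of the 5 was, Igf2r at 1.57 with an interval of 0.991 to 2.55. Qk and Dync1h1 had ratios of 0.968 and 0.953 between Ribavirin-OVA and Vehicle-OVA.

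The macrophage-like class was made of different clusters with and without OVA. Cluster 0, led by Ly6i, Cxcl9 and class II genes, was 80.6% of it in Vehicle and 42.6% in Vehicle-OVA, and 76.0% and 33.2% in Ribavirin and Ribavirin-OVA. Cluster 14, led by Fcrls, Slco2b1 and Crybb1, was 19.15% and 57.4%, and 19.1% and 66.4%, in the same order. Of the 173 cells of another macrophage-like cluster, 160 came from the Ribavirin library.

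Qk was higher in cluster 14 than in cluster 0 in each library. Cluster 14 had 348 CPM of Qk in Vehicle, 551 in Vehicle-OVA, 317 in Ribavirin and 492 in Ribavirin-OVA, and cluster 0 had 182, 258.5, 197 and 280.2 CPM. The OVA ratios of Qk within a cluster were 1.42 (1.25 to 1.60) and 1.42 (1.26 to 1.60) in cluster 0 and 1.58 (1.47 to 1.70) and 1.55 (1.45 to 1.67) in cluster 14, below the ratios of the whole class. Dync1h1 differed little between the clusters, with 109, 192, 109.6 and 227 CPM in cluster 0 and 125, 212, 119 and 185 CPM in cluster 14. Its OVA ratios within them ran from 1.55 to 2.07. Mettl1 stood between 14.4 and 15.9 CPM in the 4 libraries of cluster 0 and between 8.30 and 10.3 CPM in those of cluster 14.

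**Figure D2:**
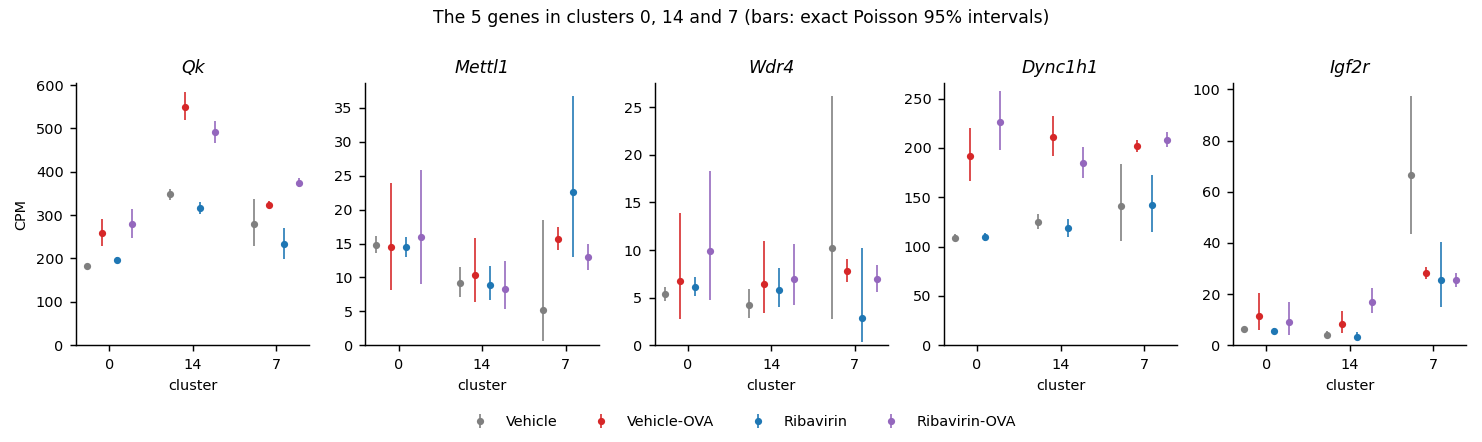
Level of each gene (CPM of summed UMIs, linear axis) in macrophage-like clusters 0 and 14 and in the unnamed cluster 7, by library, with 95% Poisson intervals. Igf2r in cluster 7 sat between 25.5 and 66.6 CPM, above 3.24 to 16.9 CPM in clusters 0 and 14.

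The unnamed cluster 7, led by Ccl24, Arg1 and Mmp12, genes of alternatively activated macrophages, carried macrophage markers but stayed without a name because genes listed as markers of other classes were among its leading genes. It was 0.149% of cells in Vehicle, 11% in Vehicle-OVA, 0.333% in Ribavirin and 13.4% in Ribavirin-OVA. Igf2r stood there at 66.6, 28.2, 25.5 and 25.5 CPM on 26, 572, 18 and 358 UMIs, above each macrophage-like library. Added to the macrophage-like cells, a choice made after seeing the data, the cluster moved the Igf2r ratios to 3.97 (3.45 to 4.59) and 4.17 (3.50 to 4.98). Qk then had 1.605 and 1.78, Dync1h1 1.80 and 1.83, Mettl1 1.10 and 0.888, and Wdr4 1.455 and 1.20. Of the 5 genes, 3 were past 1.5-fold in either OVA pair of the joined cells, against 34.2% and 32.6% of 12326 genes, and 0 in either ribavirin pair, against 1.6% without OVA and 7.81% with it.

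Over the 13 classes and clusters, macrophage-like and epithelial-like cells included, the same 3 genes were mostly higher with OVA. Qk was past 1.5-fold higher in all 13 classes and clusters in the vehicle pair, from 1.515 in cluster 19 to 2.415 in plasma-like cells. In the ribavirin pair it was past that fold in all 13 again, from 1.51 in NK-like to 2.43 in plasma-like cells. Of the 4793 genes with enough UMIs in each of the 13, 1.71% did so in the vehicle pair and 2.71% in the ribavirin pair. Dync1h1 did so in the ribavirin pair, with ratios from 1.53 to 2.39, but was past the fold in 9 of 13 in the vehicle pair. Igf2r ran from 0.577 in group 2 innate lymphoid cells (ILC2-like), on 15 UMIs against 19, to 3.78 in pDC-like cells in the vehicle pair. In the ribavirin pair its ratios ran from 0.720 in cluster 19 to 6.52 in pDC-like cells. Cluster 7, with 36 cells in Vehicle, was not among the 13, and its Qk ratio in the vehicle pair was not past 1.5-fold.

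Clusters are a finer split of the same cells. With OVA, Qk was higher in 31 of 31 clusters with cells enough in both pairs, and its interval lay above 1 in 25 and 30 of them. Dync1h1 was higher in 30 and 31 of the 31, with the interval above 1 in 26 and 27. Being higher in 30 or more of the 31 was shared by 18.6% of 3447 genes in the vehicle pair and by 22.2% in the ribavirin pair. Igf2r was higher in 25 and 29 clusters, Mettl1 in 15 and 17, and Wdr4 in 22 and 21. With ribavirin, Qk was higher in 19 of 31 clusters without OVA and in 17 with OVA.

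**Figure D3:**
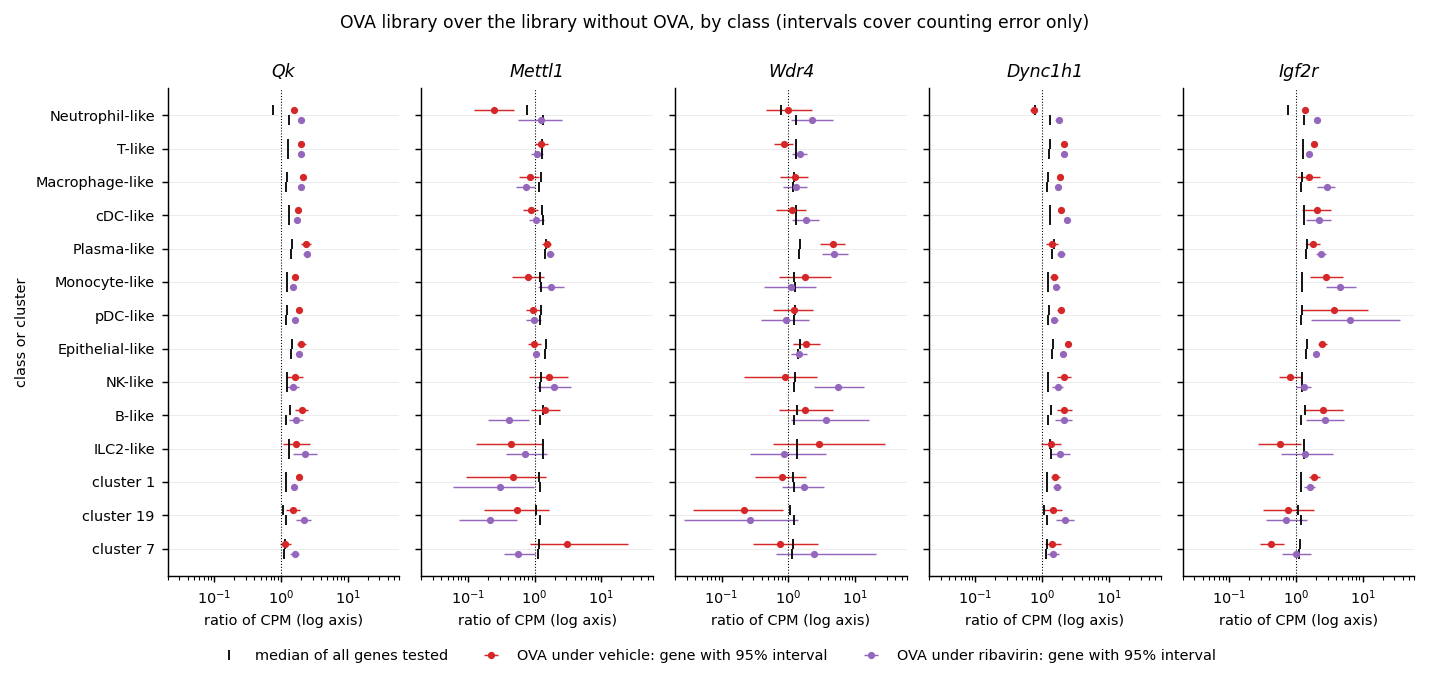
Ratio of each gene between OVA and non-OVA libraries (log axis) by class or cluster, for the vehicle and the ribavirin pair, with 95% exact intervals, and ticks at the median of all genes of the class. Qk ratios lay above 1.5 in 13 of the 14 entries, with cluster 7 at 1.16 in the vehicle pair, and the Mettl1 ratios lay on both sides of 1.

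In T-like cells the same 3 genes were higher with OVA in both pairs. Qk read 56.7 CPM in Vehicle, 115 in Vehicle-OVA, 60.4 in Ribavirin and 121 in Ribavirin-OVA, with ratios of 2.03 and 2.00. Dync1h1 read 81.7, 172, 83.8 and 177 CPM, with ratios of 2.105 and 2.11. Igf2r had ratios of 1.85 and 1.59 from the levels above, so for each of the 3 genes no OVA library overlapped a library without OVA. Mettl1 had 1.26 (1.01 to 1.57) and 1.095 (0.887 to 1.35). Wdr4 had 0.860 in the vehicle pair and 1.48 (1.14 to 1.91) in the ribavirin pair.

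Past 1.5-fold in T-like cells were 3 of the 5 genes in both OVA pairs, all higher, against 46.0% and 42.9% of 11995 genes. Between the ribavirin pairs 0 of the 5 were past it without OVA, against 2.5% of genes, and 1 with OVA, against 7.24%. That gene was Wdr4, at a ratio of 1.70 (1.18 to 2.47). The T-like class also changed its make-up: cluster 5, led by Il17f, Il22 and Il17a, was 39.1% of it in Vehicle and 2.76% in Vehicle-OVA, and 28.9% and 3.19% in Ribavirin and Ribavirin-OVA. Cluster 18, led by Themis and Gzmk, went from 1.60% to 43.0% and from 2.60% to 39.7%. Within clusters, Qk, Dync1h1 and Igf2r were each higher with OVA in 6 of 6 T-like clusters in both pairs. The interval lay above 1 in 5 and 6 clusters for Qk, 6 and 5 for Dync1h1, and 5 and 3 for Igf2r. No share of all genes is given beside these counts.

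Neutrophil-like cells differed between the pairs. Qk read 102 CPM in Vehicle, 162 in Vehicle-OVA, 90.4 in Ribavirin and 180.3 in Ribavirin-OVA, with OVA ratios of 1.58 and 1.995. Igf2r had ratios of 1.37 and 2.07 from the levels given above. Dync1h1 was lower with OVA in the vehicle pair, at 0.748 (0.669 to 0.836), and higher in the ribavirin pair, at 1.76 (1.56 to 1.99). Mettl1 had 0.246 (0.122 to 0.487) on 16 UMIs against 23, and 1.23 in the ribavirin pair. Wdr4 had 0.991 and 2.255. With each cluster weighted equally, a choice made after seeing the data, Dync1h1 was at 1.328 in the vehicle pair, Mettl1 at 0.492, and Wdr4 at 1.702 and 1.333.

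The median of all genes differed between the pairs as well, and over 10519 genes it was -0.37 on the log2 scale in the vehicle pair and 0.40 in the ribavirin pair. Past 1.5-fold in the OVA pairs were 47.8% and 42.8% of genes, as were 2 of the 5 genes in the vehicle pair (Qk higher, Mettl1 lower) and 4 in the ribavirin pair (all but Mettl1, higher). Between Ribavirin and Vehicle 10.9% of genes were past the fold and 0 of the 5, both with the pseudocount of 1 CPM. Igf2r was at 0.694 (0.622 to 0.773), Qk at 0.884 and Dync1h1 at 0.885. Mettl1 was at 0.6663 without the pseudocount, just past the fold in the lower direction, with an interval that held 1. Between Ribavirin-OVA and Vehicle-OVA 59.3% of genes were past the fold at a median of 0.63 on the log2 scale, and 3 of the 5. Dync1h1 had 2.09 (1.87 to 2.33), Mettl1 3.33 and Wdr4 2.695, while Igf2r had 1.05 and Qk 1.12. With clusters weighted equally these became 1.238 for Dync1h1, 1.956 for Mettl1 and 0.848 for Wdr4, which turned its direction. In the same comparison 10 of 10 cell cycle genes were past 1.5-fold higher, at a median log2 difference of 2.155, and their part in these values was not tested.

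Different clusters made up this class as well. Cluster 2, led by Csf3 and Serpinb2 and mostly of the Vehicle-OVA library, was 0.749% of neutrophil-like cells in Vehicle, 46.75% in Vehicle-OVA, 10.5% in Ribavirin and 13.3% in Ribavirin-OVA. Cluster 3, led by Cxcr2 and Mmp9 among others, was 62.4%, 8.98%, 23.6% and 35.8%. Cluster 4 was 27.9%, 1.44%, 56.2% and 6.44%, cluster 8, led by the heat shock genes Hspa1b and Hspa1a, 4.57%, 21.2%, 2.08% and 16.5%, and cluster 10, led by Mmp8 and Retnlg, 1.47%, 20.15%, 1.70% and 12.9%. Cluster 22, led by Camp, Ngp and Itgb2l, granule and surface genes of immature neutrophils, was 2.925%, 1.465%, 5.905% and 15.1%.

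Dync1h1 was low in cluster 2, at 13.2, 17.4, 14.7 and 30.1 CPM in the order Vehicle, Vehicle-OVA, Ribavirin and Ribavirin-OVA, the first on 1 UMI. In cluster 3 it read 49.1, 76.6, 57.4 and 83.4 CPM. Within clusters it was higher with OVA in 5 of 6 in the vehicle pair and in 6 of 6 in the ribavirin pair. The exception was cluster 10, at 40.3 CPM in Vehicle on 11 UMIs and 25.8 in Vehicle-OVA. The interval lay above 1 in 2 clusters of the vehicle pair and 3 of the ribavirin pair, and no share of all genes is given beside these counts. The lower class value in the vehicle pair was thus not seen in most of its clusters.

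Igf2r was concentrated in cluster 8, at 225 CPM in Vehicle, 228 in Vehicle-OVA, 158 in Ribavirin and 274 in Ribavirin-OVA. Its OVA ratio within that cluster was 1.01 (0.818 to 1.27) in the vehicle pair and 1.73 (1.28 to 2.39) in the ribavirin pair. Cluster 3 held 72.1, 82.3, 62.7 and 80.0 CPM of Igf2r, and cluster 4 held 25.1, 29.1, 24.6 and 20.6 CPM. The spread of Igf2r among neutrophil-like clusters was therefore wider than its difference between libraries.

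**Figure D4:**
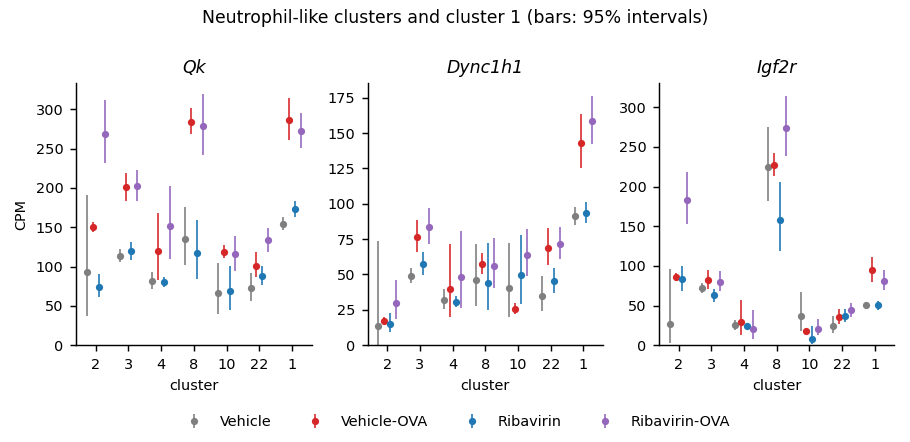
Level of Qk, Dync1h1 and Igf2r (CPM of summed UMIs, linear axis) in the neutrophil-like clusters and the unnamed cluster 1, by library, with 95% Poisson intervals. Igf2r stood at 158 to 274 CPM in cluster 8 and at 20.6 to 29.1 CPM in cluster 4.

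Plasma-like cells held the largest Wdr4 ratio with OVA in the vehicle pair among the 13 classes and clusters. Wdr4 read 4.19 CPM in Vehicle, 19.5 in Vehicle-OVA, 3.47 in Ribavirin and 17.1 in Ribavirin-OVA, with ratios of 4.65 (2.96 to 7.19) on 34 UMIs against 60, and 4.92 (3.22 to 7.73) on 97 against 29. Mettl1, from the levels above, had 1.51 (1.28 to 1.78) and 1.71 (1.51 to 1.93). Both genes of the tRNA methyltransferase were thus higher with OVA in both pairs among the cells given this class name. Those were 63 and 194 cells in the OVA libraries, while the unnamed cluster 25, with plasma cell markers, held 204 and 314 there. Cluster 25 had Wdr4 at no more than 7.24 CPM in any library, and it was not joined to the plasma-like class. Cluster 17 of this class had 2 cells in Vehicle-OVA against 1074 in Vehicle, and the plasma-like cells of the OVA libraries were mostly of cluster 28, led by cell cycle genes such as Ccna2 and Cdc20. Within cluster 28, Wdr4 read 7.54, 19.5, 7.97 and 17.4 CPM, with ratios of 2.59 (1.498 to 4.52) and 2.18 (1.24 to 4.14). Mettl1 within it read 70.6, 98.6, 58.6 and 101 CPM, with ratios of 1.40 (1.14 to 1.71) and 1.72 (1.40 to 2.15).

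Cells with 3 or more UMIs of 10 cell cycle genes were set against cells with none. In plasma-like cells of Vehicle, Wdr4 was at 5.95 CPM in the first and 2.74 CPM in the second, a ratio of 2.175 (1.12 to 4.38), and in Ribavirin the ratio was 2.04 (0.812 to 5.56). In T-like cells Mettl1 was higher in cells with cycling transcripts by 1.70 in Vehicle and 1.41 in Ribavirin, while the ratios of 1.37 (0.778 to 2.33) in Vehicle-OVA and 1.36 (0.896 to 2.03) in Ribavirin-OVA had intervals that held 1. Igf2r was lower in such T-like cells, with ratios of 0.558 in Vehicle, 0.574 in Ribavirin and 0.722 in Ribavirin-OVA, and 0.8685 (0.697 to 1.075) in Vehicle-OVA. Dync1h1 was lower in them too, at 0.7285 in Vehicle, 0.661 in Vehicle-OVA, 0.620 in Ribavirin and 0.798 in Ribavirin-OVA. In macrophage-like cells Igf2r was higher in cells with cycling transcripts, at 1.82 (1.14 to 2.805) in Vehicle and 2.02 (1.15 to 3.35) in Ribavirin. Mettl1 there had a ratio of 1.22 (0.855 to 1.695) in Vehicle and was lower in Ribavirin, at 0.579 (0.327 to 0.955). Cells in the first range were deeper, with a median of 10040 UMIs against 3782 in T-like cells of Vehicle, and 1509 cells there lay between the ranges.

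In epithelial-like cells Dync1h1 read 67.5 CPM in Vehicle, 167 in Vehicle-OVA, 65.3 in Ribavirin and 133 in Ribavirin-OVA, with OVA ratios of 2.47 and 2.04. Igf2r read 28.8, 71.9, 30.6 and 62.5 CPM there, with ratios of 2.50 and 2.04. Cluster make-up changed here too, since cluster 27, low in both genes, was 106 of 409 cells in Vehicle and 30 of 174 in Vehicle-OVA, and 291 of 901 in Ribavirin and 76 of 397 in Ribavirin-OVA, and cluster 33 was 98 cells in Vehicle and 7 in Vehicle-OVA. Within clusters both genes were higher with OVA in 4 of 4 with cells enough, in both pairs. Dync1h1 ratios there ran from 1.40 to 3.79 and Igf2r ratios from 1.48 to 3.29, and no share of all genes is given beside these counts. Mettl1 had 0.991 and 1.04 in the epithelial-like class. Monocyte-like cells had Igf2r at 5.19, 14.8, 4.14 and 19.3 CPM, with ratios of 2.855 (1.65 to 5.03) and 4.66 (2.82 to 7.95). NK-like cells held Wdr4 at a ratio of 0.890 in the vehicle pair and of 5.53 (2.43 to 13.7) in the ribavirin pair, the latter on 21 UMIs against 9.

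Transcript length moved with the OVA ratio. Genes of macrophage-like cells were placed in 10 groups of rising longest-transcript length, with a median log2 OVA ratio of -0.41 in the shortest and 0.56 in the longest group in the vehicle pair, and of -0.40 and 0.49 in the ribavirin pair. Qk, Dync1h1 and Igf2r were all in the longest group, in which 49.96% and 43.16% of genes were past 1.5-fold. Wdr4 was in the seventh group, at 0.43 and 0.34, and Mettl1 in the second, at -0.08 and -0.07. In T-like cells the medians went from -0.48 to 0.76 and from -0.46 to 0.71, and in neutrophil-like cells from -1.004 to -0.15 and from -0.22 to 0.57. The part of length in the values of the 5 genes was not tested.

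**Figure D5:**
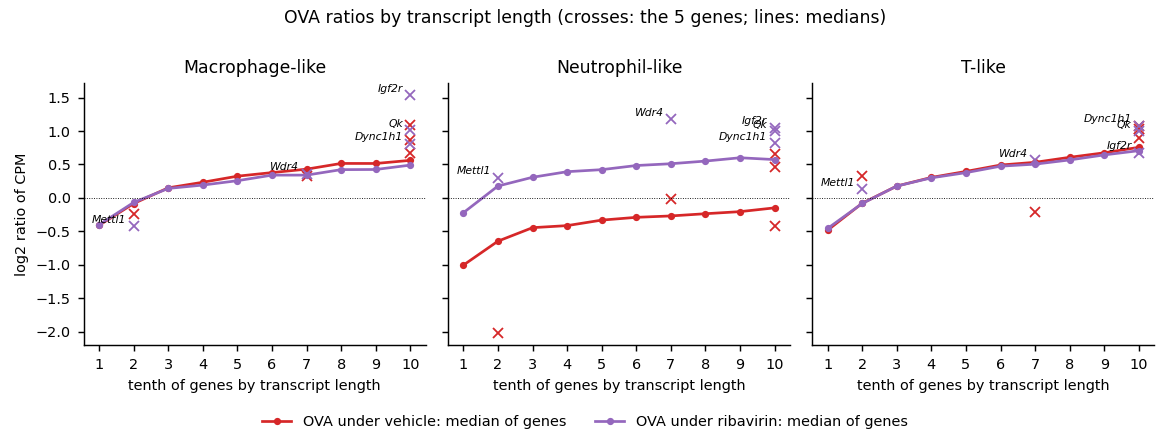
Median log2 OVA ratio of genes in 10 groups of longest-transcript length, shortest to longest, in macrophage-like, neutrophil-like and T-like cells, with crosses for the 5 genes. The median rose from -0.41 to 0.56 in macrophage-like cells of the vehicle pair, and Qk, Dync1h1 and Igf2r sat in the longest group.

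Pathway neighbours were read in macrophage-like cells from lists, with values as log2(CPM + 1) differences for the vehicle and then the ribavirin pair. Among all genes 30.0% were past 1.5-fold higher and 9.47% lower in the vehicle pair, and 26.2% and 10.05% in the ribavirin pair. Of 3 measured STAR-type relatives of Qk, 2 were past the fold higher in the vehicle pair and 0 in the ribavirin pair, at list medians of 0.64 and 0.35. Khdrbs1, the splicing regulator Sam68, had 0.67 and 0.46, and the branch point binding factor Sf1 had 0.64 and 0.35.

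Of the m7G methyltransferases and their partners, Mettl1 and Wdr4 among them, 2 of 6 were past the fold lower in both pairs and 0 higher, at medians of -0.33 and -0.36. Trmt112, the small activating subunit of several methyltransferases, had -0.86 and -0.89. Wbscr22, the rRNA enzyme that TRMT112 activates, had -0.62 and -0.87. Fam103a1, the activating subunit of the cap methyltransferase, had -0.43 and -0.32. Of 24 other tRNA methyltransferases, 3 and 4 were past the fold higher and 0 lower, at medians of 0.15 and 0.11, among them Mettl8 with 0.79 and 0.88, Trmt1l with 0.74 and 0.75, and Nsun3 with 0.39 and 0.70.

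Of 11 measured dynein subunits, with Dync1h1 among them, 4 were past the fold higher and 2 lower in the vehicle pair, and 5 and 1 in the ribavirin pair, at medians of 0.45 and 0.37. The light intermediate chain gene Dync1li1 had 0.67 and 0.80, while the short light chain gene Dynll1 had -0.67 and -0.95. Of 12 genes of dynactin, the complex that couples dynein to cargo, 4 were higher and 1 lower, then 1 and 1, at medians of 0.28 and 0.23. Dctn4 had 1.14 and 1.08, Dctn1 0.77 and 0.56, and Dctn3 -0.78 and -0.79. Of 13 dynein regulators and cargo adaptors 5 were higher in either pair and 0 lower, at medians of 0.54 and 0.42, led by Bicd2 (1.07 and 0.65), the lysosomal adaptor gene Rilp (0.87 and 0.72, on 8 and 9 UMIs with OVA) and Hook3 (0.74 and 0.79). The motor complexes thus held members on both sides.

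Around Igf2r, 2 of 5 genes of the mannose 6-phosphate tag and its receptors were higher in either pair and 0 lower, at medians of 0.26 and 0.21. Igf2r itself is in this list and was among the 2 higher genes. Gnptg, a subunit of the enzyme that makes the tag, had 0.63 and 0.70, and M6pr, the other mannose 6-phosphate receptor, had 0.26 and 0.21, near the median of all genes. Of 11 genes of retromer, which returns receptors from endosomes, and sorting nexins, 3 and 2 were higher and 0 and 1 lower, at medians of 0.30 and 0.24. Snx27 had 1.03 and 0.77, Vps26b 0.915 and 0.56, and Vps26a 0.74 and 0.60. Of 11 trans-Golgi adaptors and sorting receptors, 6 and 5 were higher and 0 lower, at medians of 0.61 and 0.40. The clathrin adaptor gene Ap1b1 had 1.38 and 1.64, Gga3 0.93 and 0.74, and the sorting receptor gene Sort1 0.85 and 0.67.

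Of 5 insulin-like growth factor ligands and receptors, 4 and 3 were higher and 0 lower, at medians of 0.66 and 1.06. Igf2r itself is in this list too and was among the higher genes in both pairs. Igf1, a growth factor that macrophages secrete, read 45.5 CPM in Vehicle, 223 in Vehicle-OVA, 43.4 in Ribavirin and 466 in Ribavirin-OVA, and Insr had log2 differences of 1.02 and 1.06. Igf2, the ligand that IGF2R clears, had 39, 2, 16 and 3 UMIs in macrophage-like cells, too few for a ratio to be read. None of the 5 imprinted neighbours of Igf2r had UMIs enough. G3bp1, the stress granule scaffold, had ratios of 1.30 (1.165 to 1.44) and 1.16 (1.04 to 1.28), and the apoptotic cell receptor gene Lrp1 had 1.445 (1.33 to 1.57) and 1.44 (1.34 to 1.55), so 0 of these 2 were past 1.5-fold. Of 10 cell cycle genes 2 were higher in either pair and 1 and 0 lower, at medians of 0.20 and 0.18.

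In neutrophil-like cells 11.4% of all genes were past 1.5-fold higher and 36.4% lower in the vehicle pair, and 36.41% and 6.35% in the ribavirin pair. Of 10 measured dynein subunits 0 were higher and 5 lower in the vehicle pair, and 4 higher and 0 lower in the ribavirin pair. Of 6 m7G methyltransferases and partners 0 were higher and 4 lower, and then 2 higher and 1 lower. Lists differed: of 4 insulin-like growth factor genes, Igf2r among them, 2 were higher and 0 lower in the vehicle pair and 3 and 0 in the ribavirin pair. Of 10 dynein regulators and adaptors it was 1 and 0, and 6 and 0. In T-like cells 36.7% of all genes were past the fold higher and 9.35% lower in the vehicle pair, and 33.98% and 8.96% in the ribavirin pair. There 7 of 12 dynein regulators and adaptors were higher and 1 lower in the vehicle pair and 6 and 0 in the ribavirin pair, and 1 m7G gene of 6 was higher and 1 lower in both.

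The pattern of each gene over 66 sums of class and library, from 19 classes and clusters, was set beside those of 12971 genes by Pearson correlation of log2(CPM + 1), as a description. The sums share libraries, and their depth differs. Most like Qk were Adam17, the sheddase gene (r = 0.89), Epn1 (0.85) and Capza2 (0.84). Most like Mettl1 were Sil1 (0.87), Mnat1 (0.85) and Manf (0.85), of which Sil1 and Manf serve the endoplasmic reticulum. Most like Wdr4 were Tufm, Ipo5 and Gemin5, each at 0.82. Most like Dync1h1 were Ptpra (0.92), Hmbox1 (0.89) and Lrrc58 (0.86), and most like Igf2r were Ttc39b (0.72), Nudt4 (0.68) and Pip5k1b (0.67). Between members, Mettl1 with Wdr4 had 0.36 and Qk with Dync1h1 0.51, while Qk had -0.31 with Mettl1 and -0.26 with Igf2r.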

How the data were processed

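Nasal mucosa cells were selected for CD45 with magnetic beads per the labels (the design text names fluorescence-activated sorting), and 10x 3′ libraries were processed by the authors with Cell Ranger 5.0.0 on mm10 into the deposited matrices, which hold UMI counts per gene and cell with no normalization. Here, barcodes below 200 detected genes or below 500 UMIs were dropped, as were those whose mitochondrial share reached 10%. Doublets were simulated per library, and cells were scored with an expected rate of 0.4% per 1000 cells, or 3.53% to 10.3%. Cells above a minimum in the simulated scores were marked, which removed 0.805% to 5.81% of cells per library. That minimum was taken on the log scale of the score in Vehicle-OVA and on the score itself in the other libraries. Counts were scaled per cell, and 2000 variable genes without the 5 members, 30 principal components, 15 neighbours and Leiden clustering at resolution 1.0 gave the clusters (Python 3.11.15, numpy 2.4.6, scipy 1.17.1, pandas 2.3.3, scikit-image 0.26.0, igraph 0.11.9, leidenalg 0.10.2, matplotlib 3.10.9). A cluster was named from at least 3 detected markers unless its leading 10 genes held more markers of another class. Clusters of shallow cells also stayed unnamed if those genes held no marker of the class. Cluster 39, which this rule named stromal, was left unnamed by a manual choice on its leading genes. The markers Trac, Trbc1 and Trbc2 and the listed gene Tarbp1 were not analysed here.

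UMIs were summed per class and library. Levels have exact Poisson intervals, ratios conditional binomial intervals and shares exact Clopper-Pearson intervals at 95%, all for counting error only. Genes with 50 UMIs or more in a class over the 4 libraries were called past 1.5-fold with a pseudocount of 1 CPM. The ratio code was tested on simulated data. Transcript lengths (GENCODE, 98.74% of genes matched) and RefSeq promoters of GRCm38.p6 came from reference tables.

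The members and lists were chosen with earlier results of these data known. Named were the 5 members, up to 3 genes per list with the largest mean OVA log2 ratio of 1 sign in macrophage-like cells, Lrp1, G3bp1, M6pr and Airn, and the 3 genes most like each member among those with 500 UMIs or more. Igf2 and other genes outside this rule were named after their values were seen. Alternatives covered mitochondrial and UMI limits, doublets, resolution, single-cell classes, scaling, pseudocount and minimum counts.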

Additional observations from a re-analysis of the deposited data

Results flagged for a closer look

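Dync1h1 differed in direction between the pairs in neutrophil-like cells, with an OVA ratio of 0.7475 under vehicle and 1.764 under ribavirin. With the unnamed cluster 1 added, an alternative chosen after seeing the data, the ratios were 0.5815 and 1.618. Wdr4 differed likewise in the cells with cluster 1, at 0.3611 and 1.803, against 0.991 and 2.255 without that cluster. These differences between the pairs were not tested, since each group is 1 library. The median of all genes moved in the same directions, by -0.60 and 0.27 on the log2 scale with cluster 1 added, and its part was not tested. With each neutrophil-like cluster weighted equally the Dync1h1 ratios were 1.328 and 1.466.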

How the results depend on the processing

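Values are log2 OVA ratios in macrophage-like cells. Qk in the vehicle pair (1.10) became 0.88 at a 20% mitochondrial limit, 0.74 at 2000 UMIs per cell, 1.00 with doublets kept, 0.99 and 0.88 at resolutions 0.5 and 2.0, 0.73 in cells with 3 or more C1q UMIs and 0.80 with the median of all genes set to a ratio of 1. In the ribavirin pair (1.01) it became 0.81 and 0.87 at mitochondrial limits of 5% and 20%, 0.70 at 2000 UMIs, 0.91 with doublets, 0.89 at resolution 2.0, 0.62 by C1q and 0.77 by the median. Dync1h1 (0.87 and 0.81) became 0.57 and 0.57 by the median. Igf2r became 1.27 at 2000 UMIs and 1.67 by C1q in the vehicle pair (0.67), and 0.61 at 5% mitochondrial UMIs in the ribavirin pair (1.53). In the ribavirin pair Mettl1 (-0.42) became 0.52 by C1q, and Wdr4 (0.36) 1.03 at the 5% limit. Of the alternatives chosen after seeing the data, adding cluster 7 gave 0.68 and 0.835 for Qk and 1.99 and 2.06 for Igf2r, and weighting clusters equally gave 0.61 and 0.59 for Qk and 0.054 for Mettl1 in the ribavirin pair. With a pseudocount of 10, genes past 1.5-fold numbered 2169 and 1958 instead of 4660 and 4278. The other 86 of 116 values moved by less than their counting interval or, for gene counts, by less than 1.5 times. In neutrophil-like cells 38 of 200 values moved, and Wdr4 between Ribavirin-OVA and Vehicle-OVA turned to -0.24 with clusters weighted equally; in T-like cells 11 of 160 moved. Causes of these shifts were not tested. Depth limits Wdr4 everywhere, Mettl1 in neutrophil-like and Igf2r in pDC-like cells. No paired analysis was possible because each group is 1 library.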
